A study of Mus musculus with 22 samples.

Results

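Fibroblast growth factor (FGF) signalling was followed through 10 genes in mouse stem cell cultures of wild-type and Hox-/- genotype. These were 6 ligand genes (Fgf3, Fgf4, Fgf5, Fgf8, Fgf15 and Fgf17) and 4 genes that the signal turns on and that act inside the responding cell (Spry2, Spry4, Dusp6 and Etv4). They were taken by symbol from the 55055 genes present in all 4 count tables, and all 10 were found.

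FGF ligands bind receptor tyrosine kinases together with heparan sulfate and act largely through the RAS, RAF, MEK and ERK kinases. ERK activity turns on the ETS factors of the Etv group and the Sprouty and Dusp genes, whose proteins damp the same pathway, so their RNA is commonly read as a sign of signalling. In the mouse embryo Fgf4 is made by pluripotent cells, Fgf5 by the epiblast after implantation, and Fgf8, Fgf3, Fgf4 and Fgf17 in the primitive streak and tail bud.

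The 22 poly(A)-selected libraries fall into 10 groups. Wild-type (wt) and Hox-/- mouse embryonic stem (mES) cells, with 2 libraries each, grew in 10% serum and 100 ng/ml LIF with inhibitors of GSK-3 (CHIR99021, 3 µM) and of MEK1/2 (PD0325901, 1 µM). Wt and Hox-/- endoderm cultures, with 3 libraries each, were plated in 0.2% serum, received 100 ng/ml Activin A with 3 µM CHIR99021 at 24 h and at 72 h, and were collected at 120 h. The remaining groups hold 2 libraries each and are gastruloids, aggregates of stem cells that model the early embryo: wt Chiron gastruloids at 96 h and 120 h, and wt and Hox-/- Activin A gastruloids at 96 h and 120 h. All groups start from the mES culture above, which contains the MEK inhibitor. No MEK inhibitor is listed for the endoderm cultures. LIF is not listed for them either, and they differ from mES cells in serum and in added Activin A. In every change from mES cells to endoderm, differentiation, loss of the inhibitor and these other changes of medium therefore cannot be told apart. The labels call the endoderm and gastruloid samples mixed cells, give no gastruloid doses, and do not say how many Hox-/- clones were used or whether libraries of a group came from separate cultures, so p-values measure only the spread between these libraries.

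Library totals ranged from 9108085 to 28819301 counts, and the 120 h gastruloids (9108085 to 11930416) were shallower than the 96 h gastruloids (14953662 to 28819301), so depth and time cannot be told apart. CPM are counts per 1000000 counts in the library. The log2 fold changes below also scale the libraries (TMM), so a small one can differ in sign from the CPM beside it. The summed CPM of the 39 Hox genes were 30.4 to 35.7 in wt and 0.448 to 1.34 in Hox-/- mES libraries, 828 to 877 and 22.5 to 28.6 in endoderm, 625 to 660 and 102 to 104 in Activin A gastruloids at 96 h, and 1170 to 1190 and 63.8 to 69.5 at 120 h. The mES libraries held 1230 to 1300 CPM of Pou5f1 and 905 to 923 CPM of Nanog as group means, as their label says. In endoderm cultures 7 of 7 definitive endoderm markers were higher than in mES cells in wt and 6 of 7 in Hox-/-, and 8 of 8 pluripotency markers were lower in each. The endoderm markers summed to 313 to 338 CPM in wt and 146 to 158 CPM in Hox-/- cultures, with Sox17 at 24.5 and 4.89 CPM as group means, while Pou5f1 was still at 237 and 92.2 CPM. Differences were tested on the counts across all genes, and a gene is called at an adjusted p under 0.05; a log2 fold change is positive where the group named first is higher, and SE is its standard error. In such bulk samples fewer cells of a type and less RNA per cell cannot be told apart.

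Fgf3, Fgf4 and Fgf15 are neighbours on chromosome 7 (mm10 build), all on the plus strand, within 62.9 kb. Fgf3 (ENSMUSG00000031074) lies at chr7:144838083-144844436, Fgf4 (ENSMUSG00000050917) at chr7:144847367-144865243 and Fgf15 (ENSMUSG00000031073) at chr7:144896531-144900953. Exons of Fgf15 overlap those of the antisense genes Gm26793 and Gm39119. The library kit keeps strand, but whether the counting used it is not given in the sources used here, so Fgf15 values are uncertain to that extent. Fgf5 (ENSMUSG00000029337) lies on the plus strand at chr5:98254184-98277030, Fgf8 (ENSMUSG00000025219) on the minus strand at chr19:45736798-45742915, and Fgf17 (ENSMUSG00000022101) on the minus strand at chr14:70636203-70642268.

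Of the 10 genes, 5 had an entry in the RefSeq promoter table (build GRCm38.p6), which runs from 250 bases before to 50 bases after a gene's start. Promoters of 4 of them are shown because their genes stand at opposite ends of the data: Fgf4 was highest where Fgf5 was lowest, and Dusp6 was almost silent in mES cells where Spry2 was near its level elsewhere. Capitals mark matches, on either strand, to a TATA-like motif (TATANA) and to an ETS core (CCGGAA, which reads TTCCGG on the other strand). The motifs were chosen after these sequences had been seen. The sequences run 5′ to 3′ on each gene's own strand, at chr7:144861136-144861435 (plus) for Fgf4, chr5:98253934-98254233 (plus) for Fgf5, chr10:99262981-99263280 (plus) for Dusp6 and chr14:105896770-105897069 (minus) for Spry2.
Fgf4: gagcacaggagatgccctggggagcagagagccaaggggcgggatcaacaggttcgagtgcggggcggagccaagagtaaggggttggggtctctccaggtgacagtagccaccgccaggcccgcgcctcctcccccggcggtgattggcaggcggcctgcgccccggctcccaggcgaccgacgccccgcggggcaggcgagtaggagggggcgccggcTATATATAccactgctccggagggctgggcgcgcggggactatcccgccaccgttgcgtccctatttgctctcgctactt
Fgf5: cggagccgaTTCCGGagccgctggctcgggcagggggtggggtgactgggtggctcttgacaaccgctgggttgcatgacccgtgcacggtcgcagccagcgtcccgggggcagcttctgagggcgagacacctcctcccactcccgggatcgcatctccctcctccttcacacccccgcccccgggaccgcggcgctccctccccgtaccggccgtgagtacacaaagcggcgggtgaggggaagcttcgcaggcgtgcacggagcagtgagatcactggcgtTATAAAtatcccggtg
Dusp6: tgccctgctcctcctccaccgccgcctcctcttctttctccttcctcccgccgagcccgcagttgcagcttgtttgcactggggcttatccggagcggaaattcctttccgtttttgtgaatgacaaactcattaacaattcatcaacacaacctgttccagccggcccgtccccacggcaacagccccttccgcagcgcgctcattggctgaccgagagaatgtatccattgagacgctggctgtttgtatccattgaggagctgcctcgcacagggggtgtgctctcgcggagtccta
Spry2: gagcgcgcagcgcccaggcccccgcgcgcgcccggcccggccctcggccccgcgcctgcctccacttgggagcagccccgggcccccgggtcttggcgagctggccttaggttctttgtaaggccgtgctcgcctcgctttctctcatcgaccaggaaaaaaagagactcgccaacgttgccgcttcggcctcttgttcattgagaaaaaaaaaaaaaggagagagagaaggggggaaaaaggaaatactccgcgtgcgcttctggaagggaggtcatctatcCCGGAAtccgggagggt

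In these windows the Fgf4 promoter holds overlapping TATA-like matches that begin 30 and 28 bases before the start, and Fgf5 holds TATAAA beginning 35 bases into the transcript. Over all 32851 promoters in the table, 24.7% hold the TATA-like motif on either strand. The ETS core was found in Spry2, beginning at base 34 of the transcript, and in Fgf5 on the other strand, beginning 241 bases before the start, against 14.9% of all promoters. The Dusp6 window, although its gene is a textbook ERK target, holds neither run of letters. A match is a run of letters only and shows no binding. RefSeq starts Fgf4 inside the longer span that the expression tables give it.

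The makeup of the ligand RNA, among these 6 genes, differed between the culture systems (the plot of ligand CPM by group). Other ligands, such as Fgf10, are not in the sums below. As a share of the summed FPKM of the 6 ligands (fragments per transcript length and library size), Fgf4 made up 93.5% ± 0.61 (SD, n = 2) in wt and 93.3% ± 0.4 (SD, n = 2) in Hox-/- mES cells. In every other group the largest share was that of Fgf8, from 42.4% ± 0.39 (SD, n = 2) in Chiron gastruloids at 96 h to 85.2% ± 2.0 (SD, n = 3) in wt endoderm. That lead depends on the FPKM length scaling. By mean CPM Fgf4 exceeded Fgf8 in Chiron gastruloids at 96 h (113.2 and 95.88). Fgf17 exceeded Fgf8 in Hox-/- endoderm (55.85 and 50.75) and in Chiron gastruloids at 120 h (49.2 and 47.51). Near-equal Fgf8 CPM also gave unlike FPKM, 118.1 in wt endoderm (95.1 CPM) and 79.75 in Chiron gastruloids at 96 h. The summed ligand FPKM was highest in wt Activin A gastruloids at 96 h, at 270.0 ± 1.39 (SD, n = 2), and had dropped to 87.0 ± 2.19 (SD, n = 2) by 120 h.

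**Figure D1:**
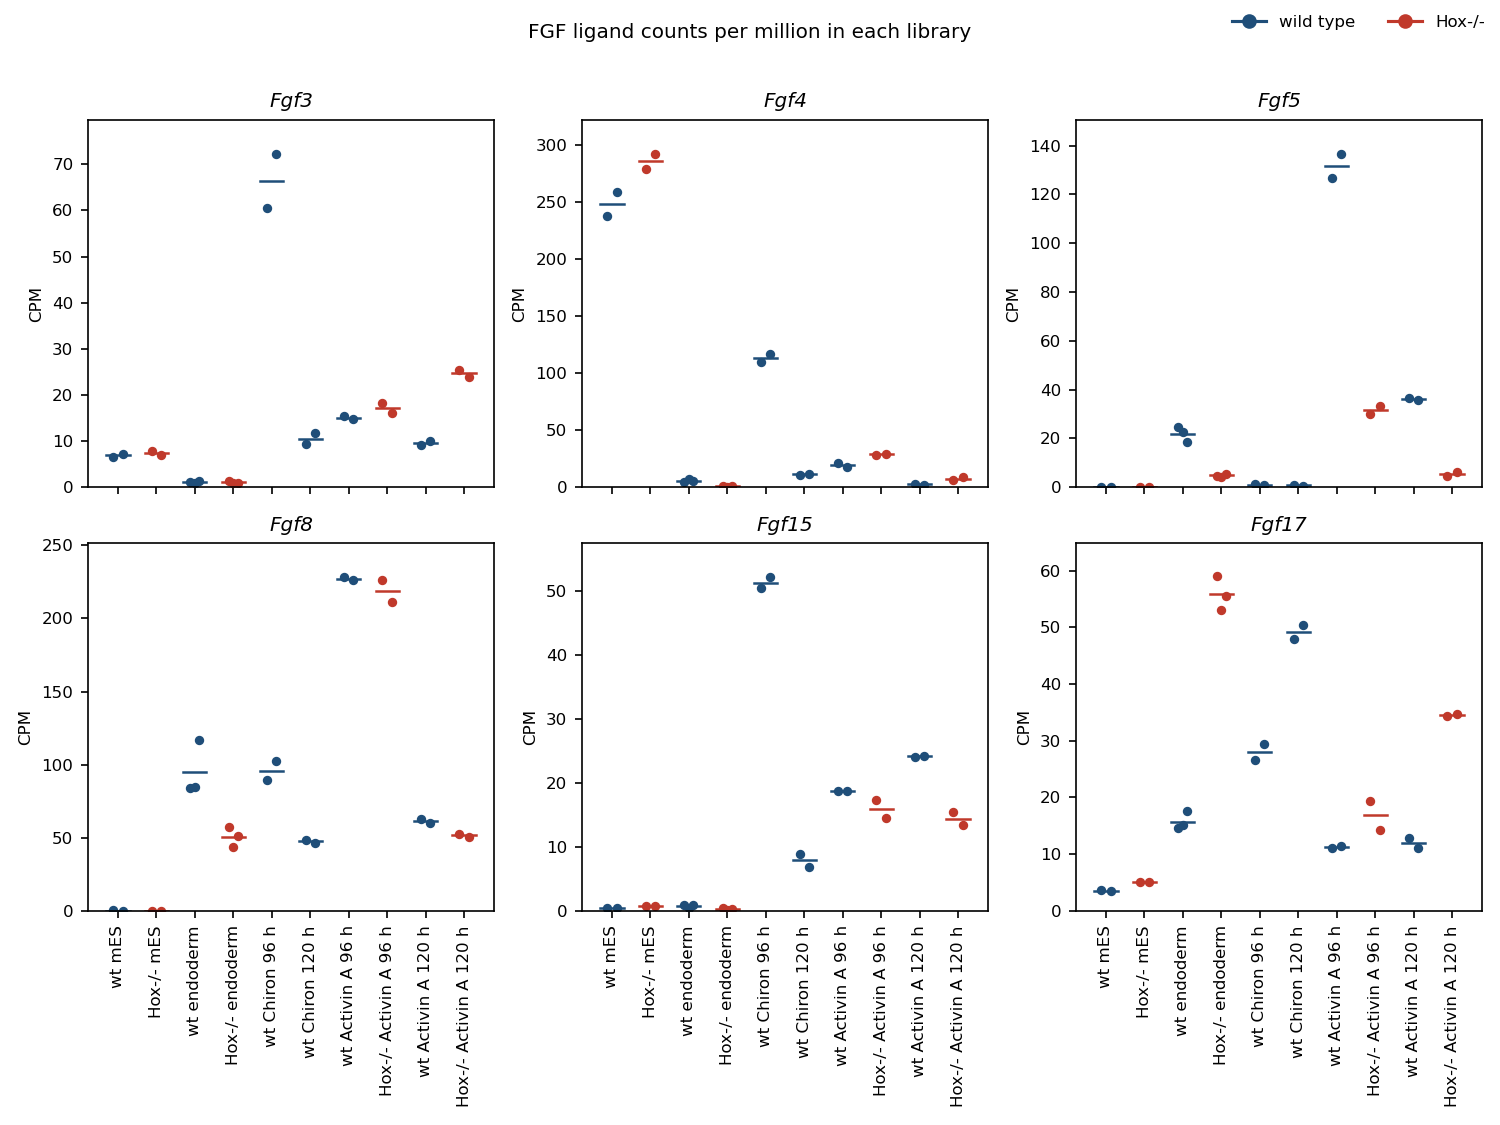
CPM of the 6 ligand genes (y axis, linear, own scale per gene) in each library (points) of the 10 groups (x axis), with group means as bars; blue is wild type and red is Hox-/-. Fgf4 is highest in the mES groups, Fgf5 and Fgf8 in Activin A gastruloids at 96 h, Fgf3 and Fgf15 in Chiron gastruloids at 96 h, and Fgf17 in Hox-/- endoderm.

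**Figure D2:**
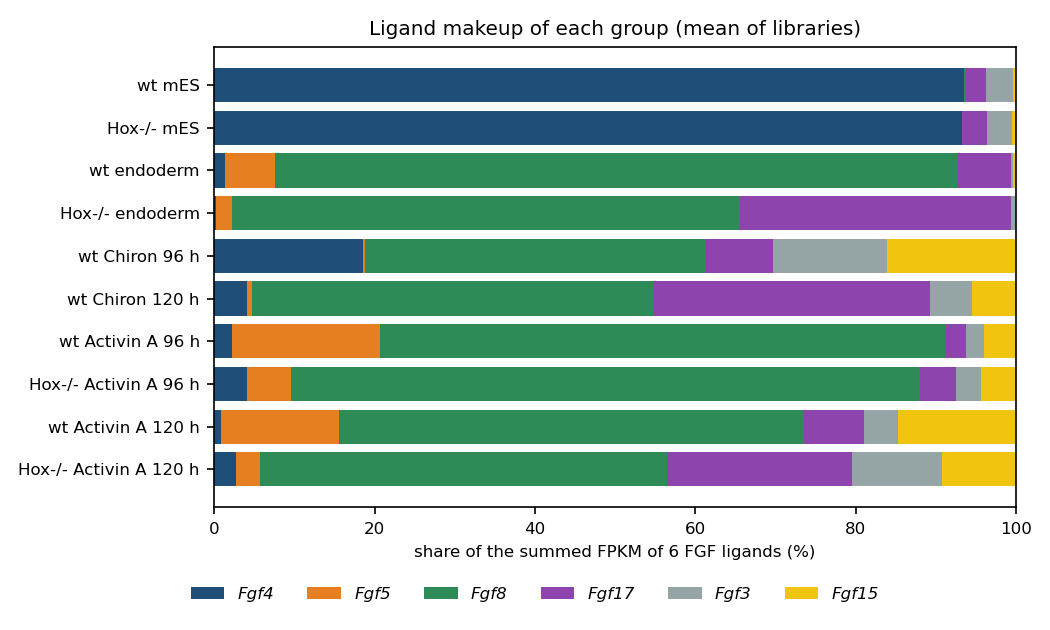
Share of each ligand in the summed FPKM of the 6 ligands (x axis, percent, mean of the libraries) in each of the 10 groups (y axis). Fgf4 fills 93.5% of the bar for wt mES cells, and Fgf8 is the widest segment in all 8 endoderm and gastruloid groups.

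Fgf4, the ligand that pluripotent cells make to prime themselves for lineage entry, was at 238 and 259 CPM in the wt mES libraries and at 279 and 292 CPM in the Hox-/- ones. It was at 4.95, 6.92 and 5.25 CPM in wt endoderm and at 0.682, 0.554 and 0.756 CPM in Hox-/- endoderm. The libraries of the 4 groups did not overlap. From mES cells to endoderm Fgf4 fell by 5.54 on the log2 scale in wt (SE 0.0828, edgeR quasi-likelihood test, adjusted p = 3.54e-21) and fell by 8.81 in Hox-/- cells (SE 0.11, adjusted p = 1.33e-22), and the fall was larger in Hox-/- cells (difference -3.27, SE 0.216, adjusted p = 1.52e-09). Pluripotency markers moved the same way between the endoderm groups: all 8 were lower in Hox-/- cultures, and their summed level was 244 to 263 CPM against 829 to 972 CPM in wt. In Activin A gastruloids, where Fgf4 was higher in Hox-/- libraries (below), 6 of these 8 markers were lower and 1 higher at each age. There they summed to 940 to 957 CPM in Hox-/- and 1070 to 1100 CPM in wt libraries at 96 h. At 120 h they summed to 36.5 to 38.6 CPM in Hox-/- and 124 to 125 CPM in wt libraries. The part of these markers in the Fgf4 results was not tested.

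In gastruloids Fgf4 was at 110 and 116 CPM under Chiron at 96 h and at 21.5 and 18.1 CPM in wt Activin A gastruloids of the same age. The Hox-/- Activin A libraries held 28.6 and 29.5 CPM at 96 h, above both wt libraries. At 120 h Fgf4 was at 2.7 and 2.2 CPM in wt and at 6.38 and 8.88 CPM in Hox-/- Activin A gastruloids, again without overlap. The gene fell with time in each series, by 3.08 in wt and 1.95 in Hox-/- Activin A gastruloids and by 3.45 in Chiron gastruloids on the log2 scale. The Hox-/- excess was 0.61 (SE 0.0825) at 96 h and 1.74 (SE 0.235) at 120 h, and it grew with time (difference 1.13, SE 0.256, edgeR adjusted p = 0.000339). Under limma on log2(FPKM + 1) that growth was 0.44 and not past the threshold (adjusted p = 0.151), and the excess at 96 h also missed it in both limma fits (adjusted p = 0.0714 and 0.0849).

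Fgf5, the marker ligand of the epiblast after implantation, was lower in Hox-/- libraries in each of the 3 culture conditions where it was tested. It held 127 and 137 CPM in wt Activin A gastruloids at 96 h, against 29.9 and 33.2 CPM in Hox-/- ones. At 120 h it held 36.5 and 35.6 CPM in wt and 4.74 and 6.36 CPM in Hox-/- gastruloids. Endoderm cultures held 24.7, 22.6 and 18.5 CPM in wt and 4.77, 4.37 and 5.35 CPM in Hox-/- libraries. No wt library overlapped a Hox-/- library of its own culture and age. The Hox-/- level was lower by log2 values of -2.17 in endoderm (SE 0.127, edgeR adjusted p = 7.89e-09), -2.02 at 96 h (SE 0.0562, adjusted p = 2e-33) and -2.6 at 120 h (SE 0.127, adjusted p = 2.78e-23).

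The widening of the Fgf5 difference from 96 h to 120 h (-0.58, SE 0.155, edgeR adjusted p = 0.00226) was not past the threshold without Hox-/- replicate 1 at 120 h, where it was -0.37 with an adjusted p of 0.151. Under limma it was 0.05 on log2(FPKM + 1) and -0.19 (adjusted p = 0.285) on log2(FPKM + 0.1). Fgf5 was at or under 3 counts in all 4 mES libraries, with a highest value of 0.084 CPM, and was not tested there. Against that floor of 3 counts per library it was at least 93.9-fold higher in wt and at least 19.2-fold higher in Hox-/- endoderm. Chiron gastruloids held 1.17 and 0.937 CPM at 96 h and 1.01 and 0.53 CPM at 120 h. Activin A exceeded Chiron by log2 values of 6.92 at 96 h (SE 0.112) and 5.44 at 120 h (SE 0.19).

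Marker lists of other cell states were measured beside Fgf5. At 96 h Otx2, an epiblast and anterior regulator, averaged 104 CPM in wt and 5.74 CPM in Hox-/- Activin A gastruloids, and Eomes, a mesendoderm factor, 173 and 31.7 CPM. The 5 primed epiblast markers summed to 611 to 631 CPM in wt and 353 to 357 CPM in Hox-/- libraries, with 3 members lower and 2 higher. The 6 mesendoderm markers summed to about the same level, 2370 to 2430 CPM in wt and 2350 to 2390 CPM in Hox-/- libraries, with 4 lower and 1 higher. The 7 definitive endoderm markers summed to 604 to 681 and 159 to 164 CPM, with 6 lower and none higher. The part of these cells in the Fgf5 difference was not tested.

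Fgf8, the main ligand of the primitive streak and tail bud, did not follow Fgf5. In Activin A gastruloids at 96 h it was at 228 and 226 CPM in wt and at 226 and 211 CPM in Hox-/- libraries. The lower wt library lay just above the higher Hox-/- one, a gap lost in rounding, and the log2 difference was 0.0013 (SE 0.0388, edgeR adjusted p = 0.985). At 120 h it was at 63 and 60.1 CPM in wt and at 52.5 and 50.7 CPM in Hox-/- libraries (log2 difference -0.14, SE 0.0664, adjusted p = 0.0698). The difference passed the threshold in 5 alternative fits: by library totals alone (-0.25), with at least 10 counts in every library (-0.18), in both limma fits on FPKM (-0.24 and -0.24) and with the 2 groups alone (-0.15). In endoderm Fgf8 was lower in Hox-/- cultures, at 57, 43.9 and 51.3 CPM against 83.8, 84.4 and 117 CPM in wt, without overlap (log2 fold change -0.90, SE 0.119, adjusted p = 3.11e-05).

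Fgf8 was at 0.199 and 0.0777 CPM in wt mES cells and had no count in the Hox-/- mES libraries, where 3 counts would be 0.224 and 0.252 CPM. It was at least 408-fold higher in wt and at least 201-fold higher in Hox-/- endoderm. Chiron gastruloids held 89.2 and 103 CPM at 96 h and 48.4 and 46.7 CPM at 120 h. Fgf8 was higher under Activin A than under Chiron by 1.18 at 96 h (SE 0.056) and by 0.32 at 120 h (SE 0.0779) on the log2 scale, and that excess shrank with time (difference -0.86, SE 0.096, edgeR adjusted p = 1.52e-07).

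Fgf17, a ligand of the Fgf8 subfamily, went the other way from Fgf5 with genotype. Hox-/- endoderm held 59, 53.1 and 55.5 CPM, the highest of any group, against 14.6, 15.1 and 17.5 CPM in wt (log2 fold change 1.84, SE 0.0805, edgeR adjusted p = 3.53e-10). Activin A gastruloids held 11.1 and 11.4 CPM in wt and 19.4 and 14.3 CPM in Hox-/- libraries at 96 h, then 12.9 and 11.1 CPM in wt and 34.3 and 34.7 CPM in Hox-/- libraries at 120 h. The groups did not overlap at either age. The excess was 0.67 (SE 0.102) at 96 h and 1.64 (SE 0.119) at 120 h, and it grew with time (difference 0.97, SE 0.161, adjusted p = 2.66e-06). The call at 96 h was lost under limma on log2(FPKM + 1) (0.47, adjusted p = 0.0714). Fgf17 took 33.8% ± 2.0 (SD, n = 3) of the ligand FPKM in Hox-/- endoderm and 6.56% ± 0.34 (SD, n = 3) in wt.

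In mES cells Fgf17 was at 3.59 and 3.42 CPM in wt and 5.15 and 5.04 CPM in Hox-/- libraries, which did not overlap but missed the threshold (log2 fold change 0.54, SE 0.203, edgeR adjusted p = 0.0515). Chiron gastruloids held 26.7 and 29.4 CPM at 96 h and 48 and 50.4 CPM at 120 h. The level in wt Activin A gastruloids was lower at both ages, by log2 values of -1.39 (SE 0.0859) and -2.09 (SE 0.105). The Hox-/- Activin A libraries at 120 h therefore lay between the wt Activin A and the wt Chiron libraries. Caudal progenitor markers were higher in Hox-/- endoderm for 6 of 6 genes and summed to 630 to 678 CPM against 346 to 376 CPM in wt. In Activin A gastruloids they summed to 3640 to 3720 CPM in Hox-/- and 2650 to 2780 CPM in wt libraries at 96 h. At 120 h the sums were close, 483 to 490 and 468 to 480 CPM, with 5 markers higher and 1 lower. Chiron gastruloids held 1510 to 1750 CPM at 96 h, less than wt Activin A ones, and 606 to 673 CPM at 120 h, more than those. The part of these markers in the Fgf17 differences was not tested.

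Fgf3, a ligand of the streak and tail bud, peaked in Chiron gastruloids at 96 h, at 60.5 and 72.3 CPM, and was at 9.3 and 11.7 CPM there at 120 h. Wt Activin A gastruloids held 15.4 and 14.8 CPM at 96 h and 9.08 and 9.99 CPM at 120 h. Hox-/- gastruloids instead went from 18.3 and 16.1 CPM to 25.5 and 23.8 CPM. Time therefore changed Fgf3 in opposite directions, by -0.73 (SE 0.122) in wt and 0.49 (SE 0.0942) in Hox-/- gastruloids on the log2 scale, and the difference was 1.23 (SE 0.154, edgeR adjusted p = 5.63e-09). The genotype difference was 1.48 (SE 0.123) at 120 h and 0.26 (SE 0.0892, adjusted p = 0.0187) at 96 h. The call at 96 h was lost without Hox-/- replicate 1 (0.14, adjusted p = 0.367) or without wt replicate 2 (0.22, adjusted p = 0.12), and in 6 of the other fits, DESeq2 among them (adjusted p = 0.064 to 0.195).

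In the adherent cultures Fgf3 did not pass the test for genotype. The mES libraries held 6.57 and 7.31 CPM in wt and 7.77 and 6.89 CPM in Hox-/- cells, and the endoderm libraries held 1.14, 0.857 and 1.31 CPM in wt and 1.36, 0.984 and 0.882 CPM in Hox-/- cells. The groups overlapped in both. From mES cells to endoderm Fgf3 fell by 2.77 in wt and 2.83 in Hox-/- cells on the log2 scale.

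Fgf15, which neighbours Fgf4, was at 50.4 and 52.2 CPM in Chiron gastruloids at 96 h and fell to 8.88 and 6.89 CPM at 120 h. In wt Activin A gastruloids it was at 18.8 and 18.8 CPM at 96 h and at 24.1 and 24.2 CPM at 120 h. The treatment difference thus changed sign, from -1.51 (SE 0.0745) at 96 h to 1.54 (SE 0.126) at 120 h (change 3.06, SE 0.145, edgeR adjusted p = 4.65e-14). Hox-/- Activin A gastruloids held 17.3 and 14.6 CPM at 96 h, not past the threshold against wt (-0.17, adjusted p = 0.132), and 15.4 and 13.4 CPM at 120 h, which was lower (-0.63, SE 0.114, adjusted p = 6.05e-06). At 96 h the difference passed the threshold without Hox-/- replicate 1 (-0.31, adjusted p = 0.0286). No mES or endoderm library exceeded 0.948 CPM, and genotype was not tested there.

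The ligands from the chromosome 7 cluster thus did not move as a block. At 120 h in Activin A gastruloids Fgf3 and Fgf4 were higher and Fgf15 lower in Hox-/- libraries, and between treatments at 120 h Fgf15 was higher and Fgf4 lower under Activin A while Fgf3 did not pass (-0.17, edgeR adjusted p = 0.437).

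The feedback genes divided by how they behaved in mES cells, where the medium holds the MEK inhibitor (the plot of feedback gene CPM by group). Dusp6 (ENSMUSG00000019960, chr10:99263231-99267489, plus strand), a phosphatase that removes the activating phosphates from ERK, was at 8.1 and 9.87 CPM in wt and 8.37 and 7.14 CPM in Hox-/- mES cells. Every endoderm and gastruloid library held at least 142 CPM. From mES cells to endoderm Dusp6 rose by 4.46 in wt (SE 0.0854, edgeR adjusted p = 9.53e-20) and 4.5 in Hox-/- cells (SE 0.0891, adjusted p = 8.07e-20) on the log2 scale. Differentiation, loss of the inhibitor and the other changes of medium cannot be told apart in that rise. The genotypes did not pass a test of a difference in that rise (0.04, SE 0.146, adjusted p = 0.891).

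**Figure D3:**
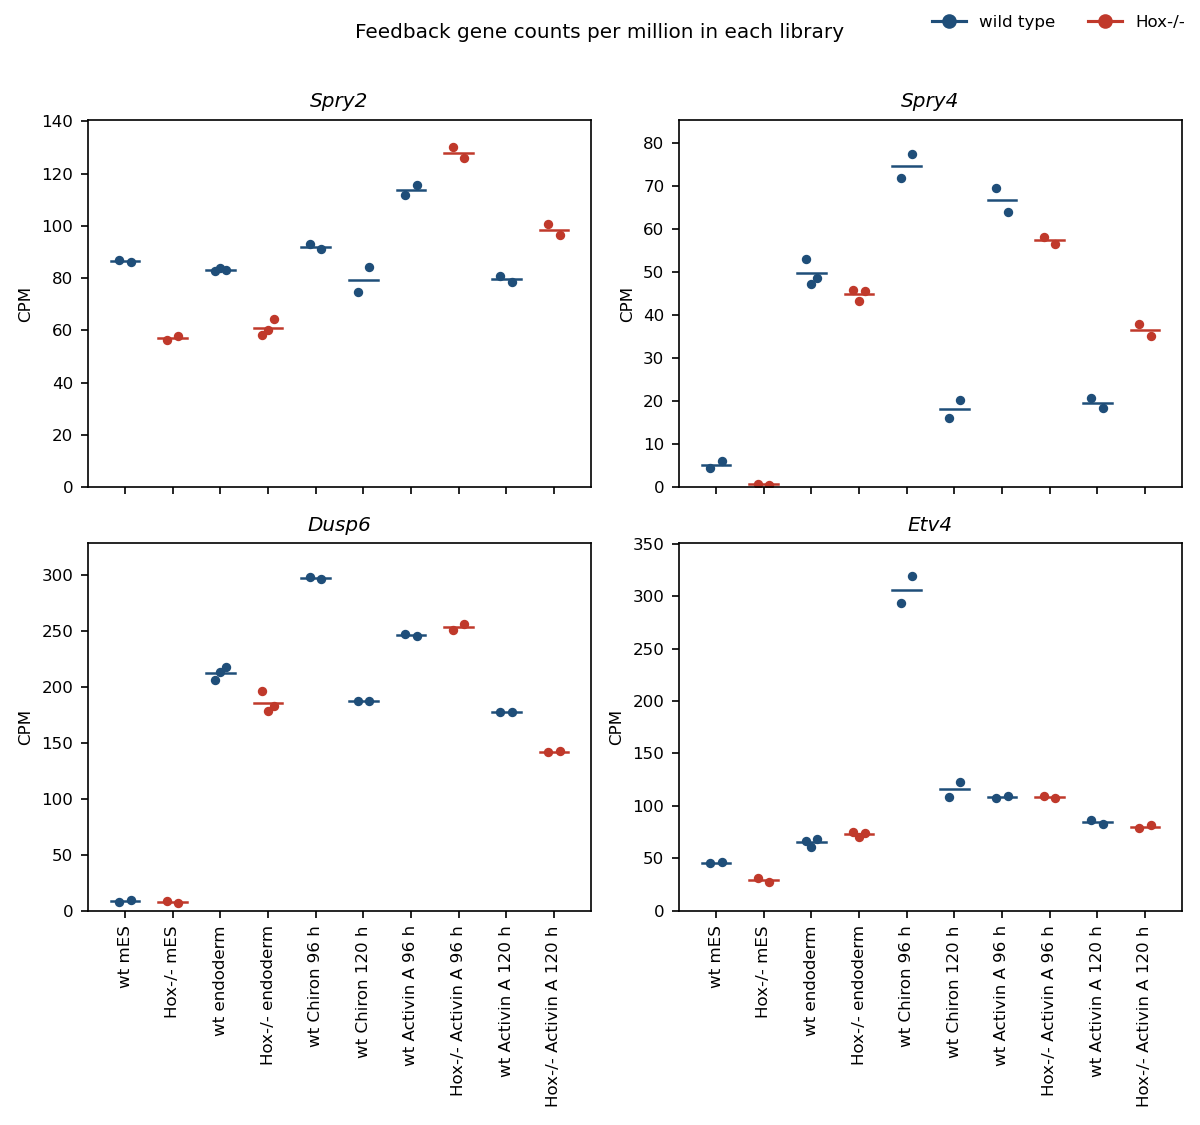
CPM of Spry2, Spry4, Dusp6 and Etv4 (y axis, linear, own scale per gene) in each library (points) of the 10 groups (x axis), with group means as bars; blue is wild type and red is Hox-/-. Dusp6 and Spry4 lie near 0 in mES cells, whereas Spry2 stays between 56.4 and 130 CPM in every library.

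Among endoderm and gastruloid groups the Dusp6 means ran from 142.3 to 297.7 CPM. From 96 h to 120 h Dusp6 fell in wt Activin A (-0.55), Hox-/- Activin A (-0.85) and Chiron (-0.77) gastruloids on the log2 scale. It was at 206, 213 and 218 CPM in wt and 196, 179 and 183 CPM in Hox-/- endoderm (-0.18, SE 0.0508, edgeR adjusted p = 0.00838). At 96 h it was at 298 and 297 CPM under Chiron, 247 and 246 CPM in wt and 251 and 256 CPM in Hox-/- Activin A gastruloids. At 120 h it was at 188 and 188 CPM, 178 and 177 CPM, and 142 and 142 CPM in the same order. The Hox-/- level at 120 h was the lowest of these, -0.21 against wt (SE 0.0458, adjusted p = 0.000145). The calls of 0.09 at 96 h by genotype and -0.13 at 120 h by treatment are small: the first was lost on leaving out wt replicate 1, wt replicate 2 or Hox-/- replicate 2 at 96 h (adjusted p = 0.108, 0.174 and 0.14), and the second on leaving out any of the 4 libraries (adjusted p = 0.0562 to 0.151). By library totals alone they were 0.04 and -0.08 (adjusted p = 0.394 and 0.205), and DESeq2 called neither (adjusted p = 0.135 and 0.0651).

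Spry4 (ENSMUSG00000024427, chromosome 18, minus strand), an inhibitor of receptor tyrosine kinase signalling, was lower in Hox-/- mES cells, at 0.747 and 0.588 CPM against 4.38 and 5.98 CPM in wt (log2 fold change -2.92, SE 0.314, edgeR adjusted p = 4.43e-09). On log2(FPKM + 1), which understates changes of low genes, limma gave -0.85 (adjusted p = 0.0754). In endoderm the gap was not past the threshold, with 53.1, 47.2 and 48.7 CPM in wt and 45.8, 43.3 and 45.5 CPM in Hox-/- cultures (-0.14, SE 0.0629, adjusted p = 0.092). The rise from mES cells to endoderm was therefore larger in Hox-/- cells, 5.96 against 3.15 on the log2 scale (difference 2.81, SE 0.29, adjusted p = 6.63e-07).

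Spry4 also split the genotypes late in the gastruloids. At 96 h wt Activin A libraries held 69.6 and 63.9 CPM and Hox-/- ones 58.1 and 56.6 CPM. At 120 h the wt libraries had fallen to 20.6 and 18.3 CPM and the Hox-/- ones to 37.8 and 35.1 CPM. The genotype difference changed sign from -0.16 (SE 0.0532) to 1.01 (SE 0.0942), with a change of 1.18 (SE 0.108, edgeR adjusted p = 8.07e-13). The lower value at 96 h was lost without wt replicate 1 (adjusted p = 0.244) or Hox-/- replicate 2 (adjusted p = 0.068), under DESeq2 (adjusted p = 0.185) and in both limma fits (0.113 and 0.117). Chiron gastruloids went from 71.8 and 77.5 CPM to 16 and 20.3 CPM, close to the wt Activin A libraries at 120 h (0.07, SE 0.121, adjusted p = 0.692). The small treatment difference at 96 h (-0.23) was lost without wt Activin A replicate 2 (-0.13, adjusted p = 0.224) or wt Chiron replicate 2 (-0.14, adjusted p = 0.0775), and under DESeq2 (adjusted p = 0.0718) and limma (0.324 and 0.328).

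Presomitic mesoderm markers, like Fgf3, Fgf4, Fgf17, Spry2 and Spry4, were higher in Hox-/- than in wt Activin A gastruloids at 120 h. Fgf4, Spry2 and Spry4 nevertheless fell with time in both genotypes, and Fgf5, Fgf15 and Dusp6 were lower in Hox-/- gastruloids at 120 h. All 6 markers were higher, and they summed to 1060 to 1070 CPM against 204 to 206 CPM in wt. Tbx6, a presomitic factor, averaged 104 CPM in Hox-/- and 17.8 CPM in wt libraries, and Msgn1 27.5 and 4.84 CPM. Their part in these differences was not tested.

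Spry2 (ENSMUSG00000022114, chr14:105891947-105896819, minus strand), another Sprouty inhibitor, had the narrowest range of the 10 genes, 2.24-fold between the lowest and the highest group mean. It was at 86.9 and 86.4 CPM in wt mES cells and at 82.7, 83.7 and 83.2 CPM in wt endoderm. Its Hox-/- levels were lower in both, at 56.4 and 57.8 CPM in mES cells (-0.60, SE 0.0619, edgeR adjusted p = 1.42e-09) and at 58.2, 60.2 and 64.3 CPM in endoderm (-0.44, SE 0.0548, adjusted p = 1.54e-05). In Activin A gastruloids the sign was the opposite. Wt and Hox-/- libraries held 112 and 116 against 130 and 126 CPM at 96 h (0.22, SE 0.0423, adjusted p = 2.24e-05), and 80.6 and 78.5 against 101 and 96.5 CPM at 120 h (0.42, SE 0.0559, adjusted p = 9.5e-09). Chiron gastruloids held 93 and 91 CPM at 96 h and 74.6 and 84.2 CPM at 120 h.

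Etv4 (ENSMUSG00000017724, chr11:101769742-101785371, minus strand), an ETS transcription factor induced by FGF, was set apart by treatment more than by genotype. Chiron gastruloids held 293 and 319 CPM at 96 h, against 108 and 110 CPM in wt Activin A gastruloids (-1.56, SE 0.0542, edgeR adjusted p = 1.52e-17). By 120 h they held 109 and 123 against 86.7 and 82.9 CPM (-0.50, SE 0.0656, adjusted p = 1.63e-06). The Hox-/- Activin A libraries, at 109 and 107 CPM at 96 h and 78.5 and 81.9 CPM at 120 h, did not pass the test against wt at either age (log2 differences 0.05 and 0.03, adjusted p = 0.406 and 0.696). The SE was 0.0432 and 0.0569. At 120 h the CPM were lower in Hox-/- libraries although the log2 difference, which is TMM-scaled, was above 0. By library totals alone that difference was -0.08 (edgeR adjusted p = 0.239).

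In mES cells Etv4 was lower in Hox-/- libraries, at 30.8 and 27.8 CPM against 45.5 and 46.5 CPM (-0.65, SE 0.0791, edgeR adjusted p = 6.54e-08; -0.60 and adjusted p = 0.0894 under limma on log2(FPKM + 1)). In endoderm it was higher, at 75.2, 70.6 and 74.4 CPM against 66.6, 60.3 and 68.4 CPM (0.18, SE 0.0606, adjusted p = 0.0232), a call that was lost without wt replicate 2, Hox-/- replicate 1 or Hox-/- replicate 3 (adjusted p = 0.148, 0.0793 and 0.0757), under DESeq2 (adjusted p = 0.0504) and under limma (0.0995 and 0.0819). The genotypes differed in the change from mES cells to endoderm, 1.24 in Hox-/- against 0.38 in wt cells (difference 0.86, SE 0.102, adjusted p = 3.68e-06).

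The counts of genes called were read against the share of all tested genes called in the same comparison (the plot of genotype differences). In mES cells 4 of the 7 tested genes passed, against 23.2% of all tested genes; Fgf4 was higher and Spry2, Spry4 and Etv4 were lower. The Fgf4 call (0.20) was lost without wt replicate 1 (0.14, edgeR adjusted p = 0.228) and under limma (0.191 and 0.137). In endoderm 7 of 9 passed (2 higher and 5 lower), against 46.2% of all genes. In Activin A gastruloids 7 of 10 passed at 96 h (5 higher and 2 lower), against 38.9%, and 8 of 10 at 120 h (5 higher and 3 lower), against 50.4%. The median log2 fold change was 0.0708 over the 10 genes and 0.0348 over all genes at 96 h, and 0.226 and -0.0205 at 120 h. Genes tested had to have enough counts in some group, so these counts are descriptions.

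**Figure D4:**
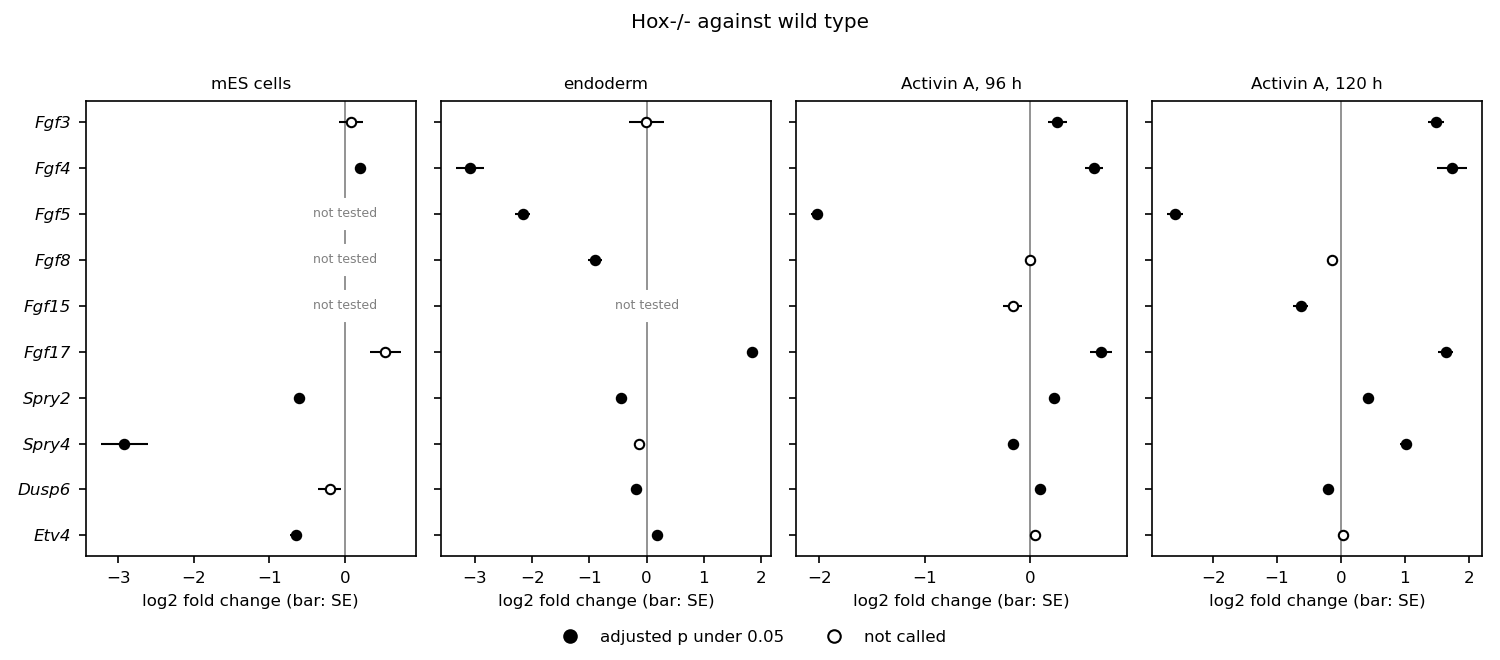
Log2 fold change of Hox-/- against wild type (x axis, bars are SE; each panel has its own scale) for the 10 genes (y axis) in 4 culture conditions; filled points have an adjusted p under 0.05. Fgf5 lies left of 0 wherever it was tested, and Fgf17 is right of 0 in all 4 panels, at 0.54 without passing in mES cells.

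Between treatments in wild type, 10 of 10 genes passed at 96 h, against 61.6% of all genes, and 7 of 10 at 120 h, against 41.9% (the plot of treatment differences). Only Fgf5 and Fgf8 among the ligands were higher under Activin A at 96 h; Fgf15 joined them at 120 h. The treatment difference changed with time for 8 of 10 genes, against 39.6% of all genes. These values share the 8 wt gastruloid libraries. For Fgf5 that change (-1.48, SE 0.424) rested on few Chiron counts and was lost without wt Chiron replicate 1 at 120 h (-0.89, edgeR adjusted p = 0.389).

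**Figure D5:**
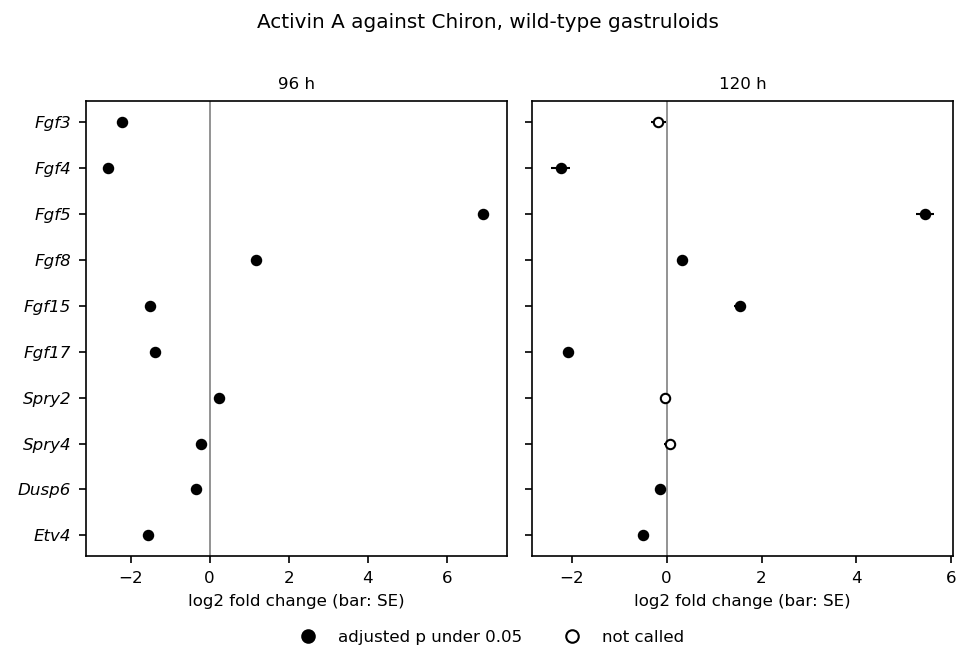
Log2 fold change of wt Activin A against wt Chiron gastruloids (x axis, bars are SE; each panel has its own scale) at 96 h and 120 h for the 10 genes (y axis); filled points have an adjusted p under 0.05. Fgf15 crosses from -1.51 at 96 h to 1.54 at 120 h, and Fgf5 is far right in both panels, at 6.92 and 5.44.

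With time from 96 h to 120 h, 9 of 10 genes passed in wt Activin A gastruloids (74.9% of all genes), 9 of 10 in Hox-/- ones (72.4%) and 9 of 10 in Chiron gastruloids (61.7%). Fgf4, Fgf8, Spry2, Spry4, Dusp6 and Etv4 were lower at 120 h in all 3 series. The genotype difference changed with time for 8 of 10 genes, against 38.9%, with Fgf8 and Etv4 the exceptions. From mES cells to endoderm 9 of 10 passed in wt (79.9%) and 9 of 10 in Hox-/- cells (80.6%), and that change differed by genotype for Fgf4, Fgf17, Spry4 and Etv4, 4 of 10 against 24.1%. The genotype, time and interaction values share libraries and are not independent of each other.

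Ordered by mean CPM, the 10 groups spanned 61.6-fold for Fgf3, 430-fold for Fgf4, 171-fold for Fgf15, 15.9-fold for Fgf17, 112-fold for Spry4, 38.4-fold for Dusp6 and 10.5-fold for Etv4. Against the 3-count floor the span was at least 565-fold for Fgf5 and at least 902-fold for Fgf8. Some neighbours in these orders overlapped. Most groups hold only 2 libraries, so a lack of overlap between neighbours says little, and its share over all genes was not measured. Genotype neighbours overlapped for Fgf3 and Dusp6 in mES cells, for Fgf3 in endoderm, for Fgf5 at the floor in mES cells, and for Etv4 in Activin A gastruloids at 96 h. The wt Activin A and Chiron groups at 120 h were overlapping neighbours for Fgf3, Spry2 and Spry4. Neighbours of the same treatment and genotype at 96 h and 120 h overlapped for Fgf5 under Chiron, for Fgf15 in Hox-/- Activin A gastruloids and for Fgf17 in wt ones. The remaining overlaps joined unlike cultures, such as Hox-/- Activin A gastruloids at 120 h and Hox-/- endoderm for Fgf5 and Fgf8, wt Chiron at 96 h and wt endoderm for Fgf8, and wt Chiron at 120 h and Hox-/- endoderm for Dusp6 and Fgf8.

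Across the 10 group means, on log2(CPM + 1) after TMM scaling, Fgf8 and Dusp6 followed each other with Pearson's r = 0.978, and Spry4 followed each of them with r = 0.919. Fgf4 and Dusp6 ran opposite, with r = -0.676. The mES groups, where the 3 genes are lowest, carry much of the range, and the groups share starting cells, so r is only a description of 10 points. Of 11200 genes outside the set with at least 10 CPM in some group, the ones closest to Dusp6 were Dusp4, another ERK pathway phosphatase, with r = 0.992 and Rspo3 with r = 0.99. Those closest to Fgf8 were Lsr (0.991) and Efnb1 (0.99), to Fgf5 Gpm6b (0.982) and Lrrn4 (0.972), and to Spry4 Smarca1 (0.981) and Slit3 (0.961). The mean profile of the 4 feedback genes was closest to Rbm18 (0.967) and Gpr89 (0.96), followed by Wnt3a, Rac1 and Msgn1 (0.953, 0.953 and 0.95). The closest genes to Fgf4 were Gapdh (0.975) and Lypla1 (0.971), to Fgf3 Golga7 (0.978) and Mrpl37 (0.964), to Fgf15 Wdr61 (0.968) and Med16 (0.961), and to Fgf17 Aida (0.954) and Sav1 (0.953). For Spry2 the nearest was Pyroxd1 (0.926), and for Etv4 Pik3c2b (0.938).

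A wider list of 88 FGF pathway genes in the tables covered other ligands, receptors and co-receptors, heparan sulfate enzymes, kinases, other feedback targets and immediate early ERK targets. On genotype, 10 of 64 tested were higher and 13 lower in Hox-/- mES cells, so 35.9% were called against 23.2% of all genes. In endoderm 24 and 22 of 77 were called (59.7% against 46.2%). In Activin A gastruloids 20 and 22 of 81 were called at 96 h (51.9% against 38.9%) and 34 and 24 of 81 at 120 h (71.6% against 50.4%). Of 14 receptors and co-receptors tested at 120 h, 5 were higher and 8 lower in Hox-/- gastruloids (median log2 fold change -0.44, against -0.0205 over all genes). Among receptors Fgfr1, the main receptor of early mesoderm, averaged 740 ± 19.9 CPM (SD, n = 2) in Hox-/- and 308 ± 9.85 CPM (SD, n = 2) in wt gastruloids at 120 h (log2 fold change 1.38, SE 0.0409, edgeR adjusted p = 2.26e-32). The heparan sulfate proteoglycan gene Gpc4 was lower there, at 7.85 ± 0.00785 against 35.5 ± 1.85 CPM, and at 96 h, at 6.89 ± 0.571 against 45.0 ± 2.88 CPM (SD, n = 2 each). Sdc4, a heparan sulfate co-receptor, was lower in Hox-/- endoderm (21.0 ± 1.84 against 47.7 ± 2.18 CPM, n = 3 each) and gastruloids at 120 h (2.46 ± 0.303 against 17.5 ± 1.5 CPM, n = 2 each).

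Among other ligands Fgf10 was lower in Hox-/- mES cells (-1.09, SE 0.167) and endoderm (-1.68, SE 0.0734), where it averaged 23.1 ± 1.91 against 74.4 ± 4.87 CPM (SD, n = 3). Fgf18, a further member of the Fgf8 subfamily, was higher in Hox-/- endoderm (1.40, SE 0.271) and in Hox-/- gastruloids at 120 h (1.95, SE 0.145), as Fgf17 was. Fgf9 was also higher in Hox-/- gastruloids at 120 h (2.74, SE 0.223). More of these ligands were lower there: of 12 tested 6 were lower and 4 higher, with a median log2 fold change of -1.19 against -0.0205 over all genes. Fgf1 was lower by a log2 value of -2.43 (SE 0.34), and Fgf16 and Fgf14 averaged 4.14 and 2.45 CPM in wt and held at most 3 counts in each Hox-/- library. Egr1, an immediate early ERK target, averaged 7.89 ± 1.14 CPM in Hox-/- and 22.2 ± 0.399 CPM in wt gastruloids at 96 h (-1.42, SE 0.105, edgeR adjusted p = 3.15e-16), where the differences of Fgf8, Dusp6 and Etv4 were 0.0013, 0.09 and 0.05. Its list as a whole did not move with it. Of the 12 immediate early targets tested, 4 were lower and 1 higher (41.7% called, against 38.9% of all genes). Their median log2 fold change was -0.0138, against 0.0348 over all genes.

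From mES cells to endoderm, where the MEK inhibitor and LIF are no longer listed and serum and Activin A differ, 55 of 77 pathway genes rose and 15 fell in wt cells (90.9% called, against 79.9% of all genes). In Hox-/- cells 52 rose and 17 fell (89.6% against 80.6%). Dusp4 went from 0.649 ± 0.0721 (SD, n = 2) to 110 ± 7.02 CPM (SD, n = 3) in wt cells, and Egr1 from 0.244 ± 0.125 to 24.0 ± 3.1 CPM. Spry1, a further Sprouty gene, went from 6.88 ± 0.501 to 44.5 ± 0.0285 CPM. Etv5, the close relative of Etv4, fell, from 526 ± 4.33 to 188 ± 6.9 CPM in wt (-1.60, SE 0.0489) and from 478 ± 2.4 to 119 ± 5.02 CPM in Hox-/- cells (-2.08, SE 0.0498), while Etv4 rose in both. Between treatments at 96 h, 28 of 82 pathway genes were higher and 37 lower under Activin A (79.3% called, against 61.6% of all genes), and at 120 h 26 were higher and 22 lower (58.5% against 41.9%). From 96 h to 120 h in Chiron gastruloids 19 of 82 rose and 40 fell (72% against 61.7%). In Activin A gastruloids 38 of 81 rose and 32 fell in wt (86.4% against 74.9%), and 37 rose and 28 fell in Hox-/- libraries (80.2% against 72.4%).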

How the data were processed

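RNA-seq of 22 libraries was analysed from 4 count tables. The authors deposited whole-number gene counts without normalization and, in separate tables, FPKM values per gene, with symbols and positions. The submitters' processing notes name cutadapt 1.16, STAR, Cufflinks 2.2.1 and the mm10 build. The counting tool and its use of strand are not given in the sources used here. The 10 genes, the pathway lists and the marker lists were chosen with earlier results of these data known.

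CPM are counts divided by the library total. Group tests used edgeR 4.0.16 (R 4.3.3) with filterByExpr, TMM scaling, quasi-likelihood tests and Benjamini-Hochberg adjustment over all genes, with calls at an adjusted p under 0.05. Each adherent culture table had its own fit, and each gastruloid table was fitted over its 4 groups; changes from mES cells to endoderm and the genotype difference in them came from a joint fit. SE is the absolute log2 fold change over the square root of F. A group at 3 or fewer counts per library is at the floor; floors cover counting error only. All 10 genes are named; pathway genes are named only at a log2 change of at least 1, an adjusted p under 0.05 and no overlap, up to 3 per list and direction. Replicates differed by more than sampling noise (chi-square per degree of freedom 1.4 to 11.3). Alternatives were DESeq2 1.42.0, limma 3.58.1 on log2(FPKM + 1) or on log2(FPKM + 0.1) with an FPKM of at least 1, other scalings and filters, and leaving out each library. On simulated counts the script recovered 83.3% of 1.5-fold and 97.4% of 2-fold changes for genotype in endoderm (14787 genes), with 2.09% of calls false. For genotype by time (16022 genes) it recovered 71.8% and 94.5%, with 3.83% false. False calls were 5.94% for genotype at 120 h (16027 genes) and 6.67% for time in Chiron gastruloids (16423 genes). The recovery rates rest on 66 and 76 changed genes for genotype in endoderm and on 71 and 55 for genotype by time. The simulation gave every gene the same spread between libraries and changed only a small set of genes with ample counts. In the data far more genes differed, with 46.2% of tested genes called for genotype in endoderm. Whether these rates hold for the 22 libraries, or for genes with few counts, was not tested.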

Additional observations from a re-analysis of the deposited data

Results flagged for a closer look

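Each of the following genes differed in its effect between ages, treatments or genotypes by an edgeR test of the difference itself (log2 scale). The genotype difference in Activin A gastruloids changed from 96 h to 120 h for Fgf3 by 1.23, Fgf4 by 1.13, Fgf5 by -0.577, Fgf15 by -0.463, Fgf17 by 0.967, Spry2 by 0.196, Spry4 by 1.18 and Dusp6 by -0.302. The sign of the genotype difference turned between the ages for Spry4 (-0.16 to 1.01) and for Dusp6 (0.09 to -0.21). The Fgf15 change was lost without Hox-/- replicate 1 at 96 h (-0.31, adjusted p = 0.128) or Hox-/- replicate 2 at 120 h (-0.36, adjusted p = 0.0943). The Spry2 change was lost without wt or Hox-/- replicate 2 at 96 h, wt replicate 2 at 120 h or Hox-/- replicate 1 at 120 h (adjusted p = 0.0793, 0.052, 0.104 and 0.112). DESeq2 called neither the Fgf15 nor the Spry2 change (adjusted p = 0.0831 and 0.0942), and limma on log2(FPKM + 1) did not call that of Fgf4 (0.44, adjusted p = 0.151).

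The difference of Activin A against Chiron changed from 96 h to 120 h for Fgf3 by 2.04, Fgf5 by -1.48, Fgf8 by -0.857, Fgf15 by 3.06, Fgf17 by -0.697, Spry2 by -0.287, Dusp6 by 0.203 and Etv4 by 1.06. For Fgf15 the sign turned. The Spry2 change was lost without replicate 2 of either treatment at 120 h (adjusted p = 0.0866 and 0.063), and that of Dusp6 without either wt Activin A library at 96 h (adjusted p = 0.0775 and 0.094) and under DESeq2 (0.0744).

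The change from mES cells to endoderm differed between Hox-/- and wt cells for Fgf4 by -3.27, Fgf17 by 1.32, Spry4 by 2.81 and Etv4 by 0.858.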

How the results depend on the processing

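Of 1816 refits of the 136 tested fold changes, 1671 kept their direction and side of the threshold, 77 fell short of it, 17 newly passed and 51 changed sign. The number of the 10 genes called moved by over 1.5 times in 8 of 189 refits: for genotype in mES cells it was 1 under limma on log2(FPKM + 1) and 2 with an offset of 0.1, and at 96 h in Activin A gastruloids 4 under DESeq2 and 2 and 3 under the same limma fits. With at least 10 counts in every library it was 4 for differentiation in wt, 4 in Hox-/- cells and 2 for its difference by genotype, since fewer genes were tested. Over all genes, calls for genotype in mES cells went from 3168 to 1099 (DESeq2), 52 and 372 (limma), and to 1477 and 1690 without wt replicate 1 or 2; at 96 h from 6546 to 3647 (DESeq2), 3078 and 2787 (limma); with limma on log2(FPKM + 0.1), from 10655 to 6670 for treatment at 96 h and from 6544 to 4264 for genotype by time. The cause was not tested.

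One called value changed sign: the change of the Fgf5 genotype difference with time was 0.0525 under limma on log2(FPKM + 1). The other sign changes were in values not called. Fgf8 for genotype at 96 h was -0.0514 by library totals, -0.047 without a filter, -0.0307 with at least 10 counts, -0.00134 with the replicate block, -0.18 and -0.181 under limma, -0.0366 with the 2 groups alone, and -0.0512 to 0.0471 on leaving out a library. Etv4 was -0.00538, -0.000965, -0.0626 and -0.0641 at 96 h (library totals, no filter, limma), and -0.0815, -0.00436 and -0.00748 to 0.0694 at 120 h (library totals, at least 10 counts, a library left out). Spry2 for treatment at 120 h was 0.00837 by library totals. Fgf17 with time in wt Activin A gastruloids was -0.0443 and -0.0103 under the filters and -0.00117 and -0.00167 under limma. Spry2 on differentiation in Hox-/- cells was -0.0235, -0.00815, -0.0235, -0.0132 and -0.0129 (RLE, no filter, DESeq2, replicate block, 2 groups alone). Etv4 for genotype by time was 0.061, 0.103 and 0.106 (no filter, limma).

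Leaving out a library gave ranges of -0.0134 to 0.165 and -0.217 to 0.142 for Fgf3 by genotype in mES cells and endoderm, -0.125 to 0.0293 for Spry2 and -0.0981 to 0.221 for Spry4 by treatment at 120 h, -0.0948 to 0.131 for Fgf17 with time in wt Activin A gastruloids, -0.0324 to 0.0437 for Spry2 on differentiation in Hox-/- cells, -0.0495 to 0.0269 for Etv4 by genotype and time, and -0.276 to 0.0919 for Fgf3, -4.7 to 0.271 for Fgf5 and -0.095 to 0.161 for Dusp6 in the genotype difference on differentiation. Calls at the edge also moved: Spry2 on differentiation in wt was lost without wt mES replicate 1 (adjusted p = 0.0746), and Fgf15 on differentiation in Hox-/- cells without either mES library or endoderm replicate 2 (0.0774, 0.12 and 0.0864).

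Same-numbered libraries correlated at -0.0701 to 0.106 in their deviations from the group means, so no pairing by number was seen. Where groups hold 2 libraries their deviations mirror each other, so this check cannot exclude shared cultures or batches. With the replicate block 5 of the 7 genes were called in mES cells, Fgf17 (0.54) being added, 7 in endoderm and 7 in Activin A gastruloids at 96 h. Scaling by library totals moved the median of all genes by -0.112 for genotype at 120 h, 0.105 for time in Chiron gastruloids and 0.118 for differentiation in wt. The highest group of each of the 10 genes was the same in CPM, TMM-scaled CPM and FPKM. Depth limits Fgf5, Fgf8 and Fgf15 in mES cells and Fgf15 in Hox-/- endoderm, where counts are few.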
